A study of Homo sapiens with 12 samples.

Results

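The genes described here make, move and use the Notch signal without being its receptors, ligands or final targets. They are 29 genes chosen by name for their roles: sheddases, gamma-secretase subunits, glycosyltransferases, ubiquitin ligases and endocytic adaptors, Deltex proteins, and the RBPJ transcription complex with its cofactors. All 29 were found by symbol among the 57992 Ensembl genes of the deposited count table, and all 29 were among the 15407 genes with enough counts to test. Poly(A) RNA was sequenced from human prostate adenocarcinoma cell lines to compare enzalutamide-resistant with enzalutamide-sensitive cells, and the series title puts Notch signalling at the centre. Enzalutamide is an androgen receptor antagonist. MR49F was labelled resistant; it is a derivative of LNCaP. C4-2, labelled sensitive, is a castration-resistant subline of LNCaP. LNCaP, an androgen-responsive line labelled sensitive, is the parent of both. Each line had 3 biological replicates. The labels give no drug concentration, culture condition or treatment time for any line, and resistance is represented by 1 line, so it cannot be told apart from whatever else sets MR49F off from the other lines. A further resistant line, C4-2R, was not analysed here.

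Notch receptors are sugar-modified on the way to the cell surface, where a ligand on a neighbouring cell, pulled by endocytosis, exposes the receptor to cutting by ADAM proteases. Gamma-secretase then releases the intracellular domain, which enters the nucleus, binds the DNA-binding protein RBPJ and recruits Mastermind and histone acetyltransferases. Without that domain RBPJ sits with co-repressors, and NUMB, ITCH, FBXW7 and Deltex proteins set how long receptors and their fragments last. In the prostate the pathway is known for its part in epithelial differentiation and, in tumours, for effects that depend on the receptor.

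Library totals were 8595344 to 9375912 counts in MR49F, 7140308 to 42770072 in C4-2 and 6990461 to 8989245 in LNCaP, with C4-2 replicate 1 the deep library. It was the lowest of its line for 16 of the 29 genes and for 38.1% of all tested genes, and C4-2 values are therefore also given without it where that matters. Markers of luminal prostate epithelium were present in all lines, with summed levels of 6359 to 6721 CPM (counts scaled to library size) in MR49F, 5853 to 6914 CPM in C4-2 and 4494 to 4669 CPM in LNCaP. Leukocyte markers summed to at most 0.328 CPM and endothelial markers to at most 4.82 CPM in any library. Basal markers reached 1.34 CPM at most. Fibroblast markers summed to 7.15 to 8.19 CPM in MR49F, 14.4 to 19.6 CPM in C4-2 and 24.1 to 27.9 CPM in LNCaP. Within that list the genes moved differently. COL1A1 averaged 5.72 CPM in MR49F, 16.5 CPM in C4-2 and 25.4 CPM in LNCaP, whereas LUM averaged 1.91 CPM in MR49F and 0.406 CPM in LNCaP and was listed at 0 in C4-2. The part of such markers in the values below was not tested. Because whole cultures were measured, fewer expressing cells and less RNA per cell cannot be told apart.

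Some of the 29 genes were higher and some lower in each pair of lines. In MR49F against LNCaP, 6 were higher and 4 lower at an adjusted p under 0.05 (edgeR's quasi-likelihood test, adjusted over all tested genes), 34.5% of the 29 against 47.0% of all tested genes. Of all tested genes, 24.1% were higher and 22.8% lower. The replicates did not overlap for 16 of the 29 and for 59.8% of all tested genes. A call with an absolute log2 fold change of at least 0.5 was made for 5 of the 29 and for 28.0% of all. The median log2 fold change was 0.07 over the 29 genes and 0.01 over all, and the median absolute value was 0.24 against 0.31.

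In C4-2 against LNCaP, 9 of the 29 were higher and 8 lower, 58.6% against 49.7% of all tested genes, of which 26.2% were higher and 23.5% lower. The replicates did not overlap for 18 of the 29 and for 55.7% of all. Calls of at least 0.5 numbered 11 of the 29, and covered 29.2% of all. The median absolute log2 fold change was 0.38 over the 29 genes and 0.32 over all. In MR49F against C4-2, 7 were higher and 10 lower, 58.6% against 61.0% of all tested genes, of which 29.9% were higher and 31.1% lower. The replicates did not overlap for 16 of the 29 and for 61.9% of all, and 11 calls reached 0.5, as for 40.0% of all. The share called was thus below the background in the first comparison, above it in the second and near it in the third. With 29 genes these gaps rest on few genes and were not tested. The genes are described below by role. The 3 comparisons share libraries and are not independent of each other.

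**Figure D1:**
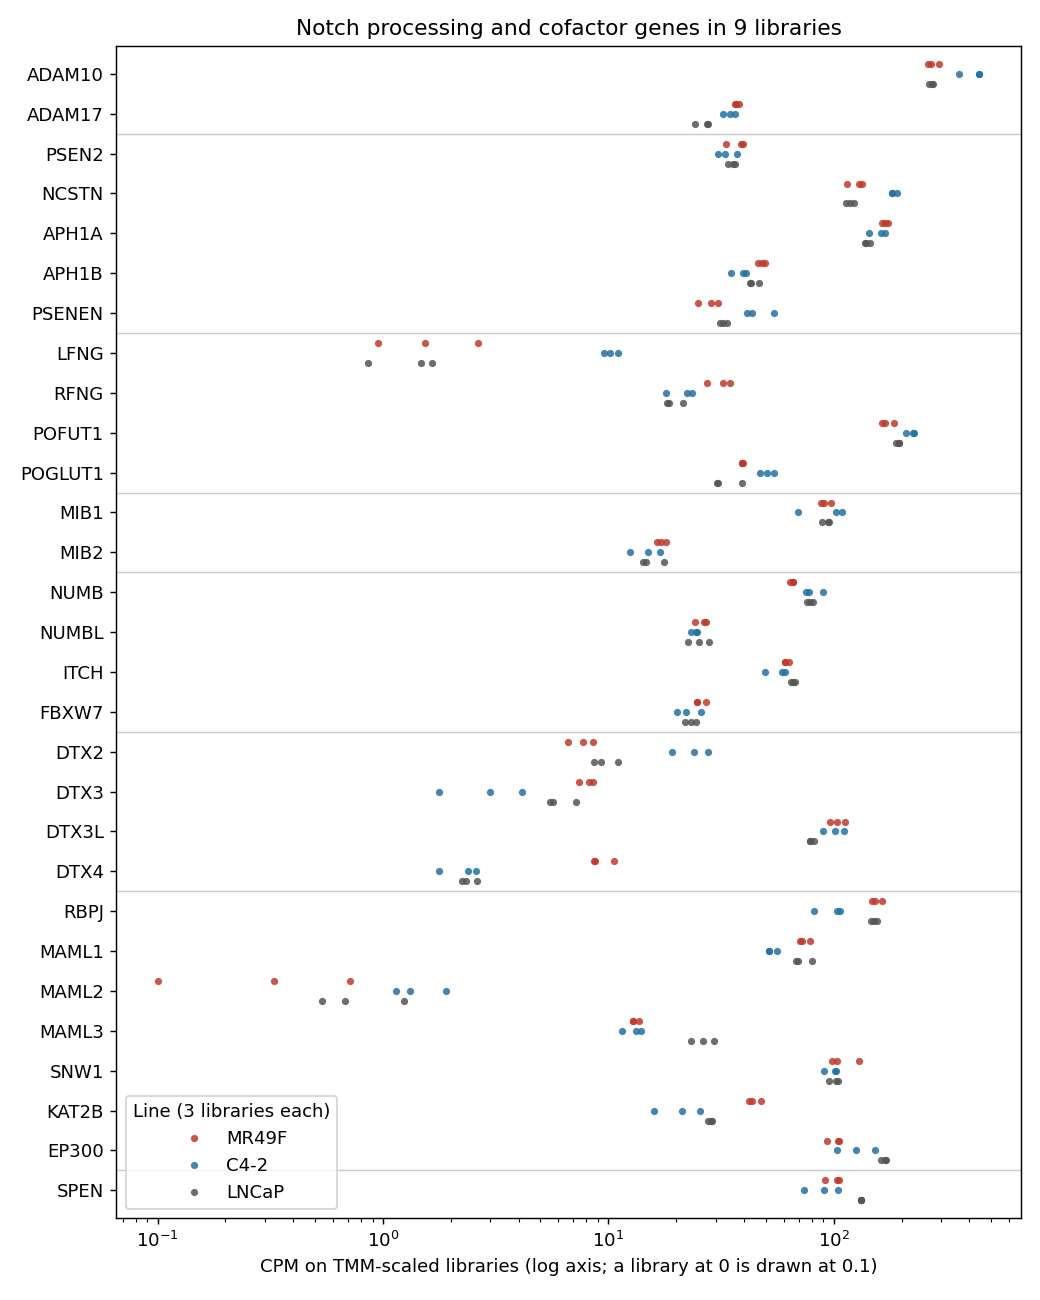
CPM on a log axis (horizontal) of the 29 genes (vertical, grouped by role between grey lines) in each of the 9 libraries; each point is 1 library and colours mark the line. LNCaP values of MAML3, EP300 and SPEN lie to the right of the others, DTX4 in MR49F and LFNG and DTX2 in C4-2 stand to the right of the other lines, and the MAML2 library listed at 0 is drawn at 0.1.

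Levels can be set side by side per kilobase of merged exons. On that scale the gamma-secretase subunit APH1A and the splicing and transcription cofactor SNW1 were among the highest, at 48.6 and 45.3 CPM per kb in MR49F, 45.6 and 40.2 in C4-2 and 40.4 and 41.4 in LNCaP. The lowest was MAML2, at 0.0488 CPM per kb in MR49F, 0.205 in C4-2 and 0.115 in LNCaP. LFNG, DTX3 and DTX4 were also low, between 0.369 and 3.01 CPM per kb in any line. The widest differences between lines were those of LFNG, DTX2, DTX3, DTX4 and MAML2, which were all low on this scale, and most of their values rest on few counts outside the deep library.

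The sheddases make the first cut. ADAM10, which performs it after ligand binding, had 263, 269 and 294 CPM in MR49F, 360, 441 and 443 CPM in C4-2, and 264, 272 and 275 CPM in LNCaP. All C4-2 libraries lay above all others, while MR49F and LNCaP overlapped. ADAM10 was higher in C4-2 than in LNCaP (log2 fold change 0.61, SE 0.0846, edgeR adjusted p = 4.46e-06), and the value in MR49F against LNCaP was 0.03 (adjusted p = 0.829). MR49F was lower than C4-2 (-0.59, adjusted p = 4.63e-06). ADAM17, the related sheddase best known for releasing TNF and EGF receptor ligands, averaged 37.1 ± 0.944 CPM in MR49F, 34.6 ± 2.13 CPM in C4-2 and 26.5 ± 1.86 CPM in LNCaP (SD, n = 3 each). It was higher in MR49F than in LNCaP by 0.49 and in C4-2 than in LNCaP by 0.38 on the log2 scale (edgeR adjusted p = 3.89e-04 and 0.00325). MR49F and C4-2 did not differ beyond their spread (0.11, adjusted p = 0.315). Of the merged exons of ADAM17, 12.3% overlap IAH1 on the opposite strand, and since the strand setting of the counting was not given, its value is less certain.

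Gamma-secretase is a membrane complex with a presenilin as its catalytic subunit. In C4-2 against LNCaP, 2 of the 5 subunits listed rose and none fell, and in MR49F 1 rose and none fell. Calls on 2 of 5 and 1 of 5 are smaller shares than the 49.7% and 47.0% of all tested genes called in these comparisons, but 5 genes are too few to read a difference from. NCSTN encodes nicastrin, which holds the substrate. It had 129, 134 and 115 CPM in MR49F, 191, 181 and 182 CPM in C4-2, and 113, 118 and 123 CPM in LNCaP. The C4-2 libraries stood above all others, with a log2 fold change against LNCaP of 0.65 (SE 0.0793, edgeR adjusted p = 8.38e-07), and MR49F against LNCaP gave 0.10 (adjusted p = 0.333). MR49F was lower than C4-2 here too (-0.56, adjusted p = 4.08e-06). PSENEN, the small subunit that completes presenilin maturation, had 28.6, 24.9 and 30.8 CPM in MR49F, 54.6, 41.4 and 43.5 CPM in C4-2, and 31.4, 33.7 and 32.4 CPM in LNCaP. It was likewise highest in C4-2, by 0.54 over LNCaP (SE 0.112, adjusted p = 4.29e-04) and by 0.38 without C4-2 replicate 1, its highest library. MR49F lay 0.75 below C4-2 (log2 fold change -0.75, adjusted p = 8.05e-06). On the opposite strand, AD000671.3 covers 23.0% of the PSENEN exons, U2AF1L4 18.0% and AD000671.2 9.4%. AD000671.1 covers 15.4% on the same strand, so the PSENEN value is also less certain. The scaffold subunit APH1A averaged 169 ± 5.90 CPM in MR49F, 158 ± 12.6 CPM in C4-2 and 140 ± 4.01 CPM in LNCaP. Its rise in MR49F against LNCaP was small (0.27, adjusted p = 0.00897) and was not called without LNCaP replicate 1 or without replicate 3 (0.24 in both cases, adjusted p = 0.0545 and 0.0548). C1orf54 overlaps 14.1% of the APH1A exons on the opposite strand. APH1B, the other scaffold, averaged 47.9 ± 1.52 CPM in MR49F, 38.5 ± 2.98 CPM in C4-2 and 44.0 ± 2.20 CPM in LNCaP, and was called only between MR49F and C4-2 (0.33, adjusted p = 0.00385). PSEN2, a presenilin, averaged 37.2 ± 3.38 CPM in MR49F, 33.6 ± 3.38 CPM in C4-2 and 35.4 ± 1.36 CPM in LNCaP, with no call in any of the 3 comparisons.

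The glycosyltransferases held the largest single difference. LFNG encodes Lunatic Fringe, which extends O-fucose on Notch and shifts the receptor's preference among ligands. LFNG had 1.53, 0.950 and 2.65 CPM in MR49F, 11, 10.2 and 9.59 CPM in C4-2, and 0.854, 1.48 and 1.65 CPM in LNCaP. The groups of C4-2 and LNCaP lie far apart, and MR49F overlaps LNCaP. The C4-2 level was 7.97 times that of LNCaP (log2 fold change 2.99, SE 0.255, edgeR adjusted p = 4.87e-09). MR49F against C4-2 gave -2.60 (SE 0.239, adjusted p = 8.61e-09), and MR49F against LNCaP 0.40 (adjusted p = 0.395). In counts, the C4-2 libraries held 459, 81 and 67 reads, against 8, 13 and 12 in LNCaP. RFNG, Radical Fringe, followed another order, with 32.3, 34.7 and 27.5 CPM in MR49F, 23.5, 18.1 and 22.3 CPM in C4-2, and 18.6, 21.4 and 18.3 CPM in LNCaP. MR49F stood above both other lines, whose libraries overlapped. RFNG rose by 0.70 in MR49F against LNCaP (SE 0.124, adjusted p = 1.01e-04) and by 0.54 against C4-2 (adjusted p = 5.14e-04). Of its exons, 21.6% overlap GPS1 on the opposite strand.

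POFUT1 adds the O-fucose that fringes extend, and POGLUT1 adds O-glucose. POGLUT1 had 39.2, 39.7 and 39.1 CPM in MR49F, 47.3, 50.7 and 54.5 CPM in C4-2, and 30.5, 30.8 and 39.1 CPM in LNCaP. C4-2 was highest throughout, 0.60 above LNCaP (SE 0.103, edgeR adjusted p = 6.50e-05), and MR49F lay 0.36 below C4-2 (log2 fold change -0.36, adjusted p = 0.00418). MR49F against LNCaP gave 0.24 (adjusted p = 0.0726), which passed when LNCaP replicate 3 was left out (0.35, adjusted p = 0.017). POFUT1 averaged 173 ± 11.5 CPM in MR49F, 221 ± 9.43 CPM in C4-2 and 193 ± 3.13 CPM in LNCaP. Its difference of 0.20 in C4-2 against LNCaP (adjusted p = 0.0378) failed under 7 of 14 alternatives, whereas MR49F against C4-2 held at -0.35 (adjusted p = 5.05e-04).

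Ligand and receptor trafficking genes act before and after the cuts. MIB1 and MIB2, the Mind bomb ubiquitin ligases that drive ligand endocytosis, were called in none of the 3 comparisons. MIB2 averaged 17.2 ± 0.846 CPM in MR49F, 14.8 ± 2.18 CPM in C4-2 and 15.5 ± 1.84 CPM in LNCaP. MIB1 averaged 91.8 ± 4.95 CPM in MR49F, 93.7 ± 21.3 CPM in C4-2 and 92.7 ± 3.40 CPM in LNCaP. The wide C4-2 spread came from replicate 1 at 69.5 CPM, beside 109 and 102 CPM. Without that library MIB1 was higher in C4-2 than in LNCaP by 0.19 (edgeR adjusted p = 0.038) and MR49F was lower than C4-2 (-0.20, adjusted p = 0.0219).

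NUMB, an endocytic adaptor that antagonises Notch, averaged 65.5 ± 1.31 CPM in MR49F, 81.0 ± 7.77 CPM in C4-2 and 78.5 ± 2.36 CPM in LNCaP. It was lower in MR49F against LNCaP (log2 fold change -0.26, edgeR adjusted p = 0.017) and against C4-2 (-0.30, adjusted p = 0.00471). The first of these calls was lost without LNCaP replicate 1 (-0.25, adjusted p = 0.0593). Its relative NUMBL averaged 26.0 ± 1.44 CPM in MR49F, 24.2 ± 0.773 CPM in C4-2 and 25.3 ± 2.74 CPM in LNCaP and was not called. FBXW7, the ubiquitin ligase subunit that marks the Notch intracellular domain for degradation, averaged 25.5 ± 1.35 CPM in MR49F, 22.7 ± 2.81 CPM in C4-2 and 23.2 ± 1.25 CPM in LNCaP, also without a call. ITCH, a ubiquitin ligase of the NEDD4 family, averaged 61.5 ± 1.32 CPM in MR49F, 56.7 ± 6.06 CPM in C4-2 and 65.9 ± 1.26 CPM in LNCaP. The lower ITCH value in C4-2 against LNCaP (-0.23, adjusted p = 0.0376) was lost under 8 of 14 alternatives and shrank to -0.13 without C4-2 replicate 1 (adjusted p = 0.2).

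The Deltex genes encode ubiquitin ligases that act on Notch in endosomes, as first worked out in Drosophila. DTX4 had 8.75, 10.6 and 8.64 CPM in MR49F, 2.38, 1.77 and 2.58 CPM in C4-2, and 2.24, 2.61 and 2.34 CPM in LNCaP. All MR49F libraries stood above all others, and C4-2 and LNCaP overlapped. DTX4 was 3.87 times higher in MR49F than in LNCaP (log2 fold change 1.95, SE 0.199, edgeR adjusted p = 7.77e-08) and 4.05 times higher than in C4-2 (2.02, SE 0.182, adjusted p = 6.53e-09). These values rest on 80, 89 and 75 counts in MR49F and 21, 23 and 17 in LNCaP.

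DTX2 had 8.54, 6.65 and 7.72 CPM in MR49F, 27.8, 19.1 and 23.9 CPM in C4-2, and 9.29, 11 and 8.68 CPM in LNCaP. Here C4-2 was the high line, 2.49 times LNCaP (log2 fold change 1.31, SE 0.150, edgeR adjusted p = 3.67e-07). MR49F lay below C4-2 by more (-1.66, SE 0.155, adjusted p = 1.13e-08) and had a value of -0.34 against LNCaP (adjusted p = 0.12). A pseudogene named after it, DTX2P1, held 37 counts over the 9 libraries beside 1924 for DTX2, and reads shared between them could have been assigned to either or dropped. DTX3 ran the other way, with 8.54, 8.19 and 7.38 CPM in MR49F, 3.00, 1.77 and 4.15 CPM in C4-2, and 5.66, 7.16 and 5.51 CPM in LNCaP. C4-2 was the low line, with a log2 fold change of -1.05 against LNCaP (SE 0.214, adjusted p = 3.99e-04). MR49F exceeded C4-2 by 1.44 (adjusted p = 4.20e-06), and its 0.39 over LNCaP did not pass (adjusted p = 0.112) although the libraries did not overlap. DTX3L, which works with the ADP-ribosyltransferase PARP9, averaged 104 ± 7.84 CPM in MR49F, 101 ± 10.5 CPM in C4-2 and 79.6 ± 1.90 CPM in LNCaP. It rose by 0.38 in MR49F and by 0.33 in C4-2 against LNCaP (adjusted p = 0.00167 and 0.0047).

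**Figure D2:**
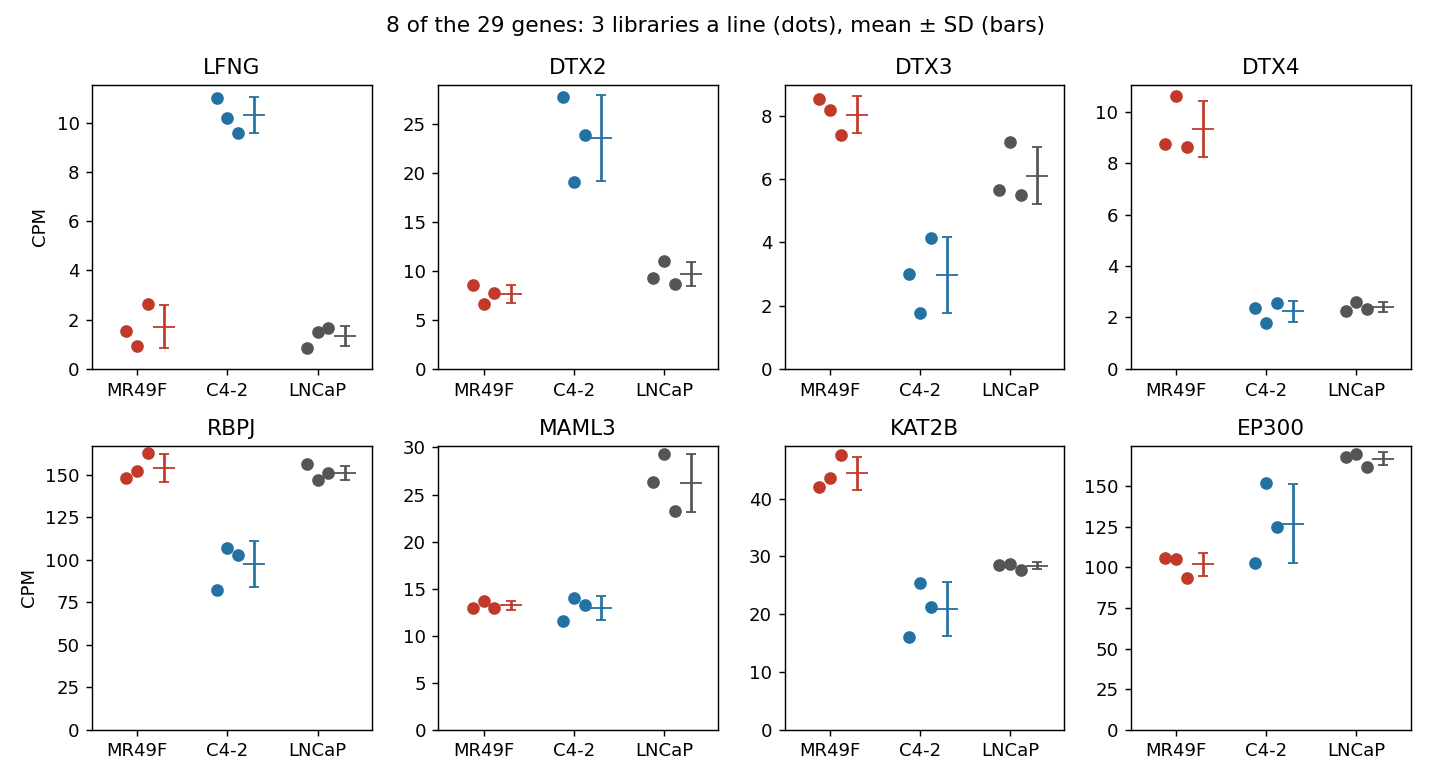
CPM (vertical, from 0) of 8 of the 29 genes in MR49F, C4-2 and LNCaP; dots are single libraries and the bar beside them is mean ± SD of 3. DTX4 averages 9.32 CPM in MR49F against 2.40 in LNCaP, LFNG 10.3 in C4-2 against 1.33 in LNCaP, and MAML3 13.2 and 12.9 in MR49F and C4-2 against 26.2 in LNCaP.

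The RBPJ complex is where the signal reaches DNA. Of its 7 genes here, 5 fell and none rose in C4-2 against LNCaP, and 1 rose and 2 fell in MR49F. Of all tested genes, 23.5% were lower and 26.2% higher in C4-2, and 22.8% lower and 24.1% higher in MR49F. The share called was 71.4% in C4-2, beside 49.7% of all tested genes. In MR49F it was 42.9%, near the 47.0% of all genes. With 7 genes such gaps rest on few genes and were not tested. RBPJ itself, the DNA-binding subunit, had 148, 152 and 163 CPM in MR49F, 81.9, 107 and 103 CPM in C4-2, and 156, 147 and 151 CPM in LNCaP. Every C4-2 library lay below every other, and MR49F overlapped LNCaP. RBPJ fell in C4-2 against LNCaP (log2 fold change -0.65, SE 0.0933, edgeR adjusted p = 8.17e-06, and -0.52 without C4-2 replicate 1), and MR49F against LNCaP gave 0.03 (adjusted p = 0.814). MR49F exceeded C4-2 by 0.68 (adjusted p = 2.71e-06).

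The MAML genes encode Mastermind proteins, which bridge the Notch intracellular domain and RBPJ to acetyltransferases. MAML3 had 12.9, 13.7 and 12.9 CPM in MR49F, 11.5, 14.0 and 13.2 CPM in C4-2, and 26.3, 29.3 and 23.2 CPM in LNCaP. Both derived lines lay far below LNCaP and overlapped each other. The log2 fold change was -1.0 in MR49F (SE 0.126, edgeR adjusted p = 1.51e-06) and -1.06 in C4-2 (SE 0.123, adjusted p = 4.27e-07), both against LNCaP. MR49F against C4-2 gave 0.06 (adjusted p = 0.701). Of the MAML3 exons, 3.6% overlap the opposite-strand gene MGST2. MAML1 averaged 73.8 ± 4.35 CPM in MR49F, 53.2 ± 2.67 CPM in C4-2 and 72.6 ± 6.68 CPM in LNCaP. It fell in C4-2 against LNCaP (-0.45, SE 0.0899, adjusted p = 2.94e-04), while MR49F against LNCaP gave 0.02 (adjusted p = 0.862) and MR49F against C4-2 0.48 (adjusted p = 1.14e-04). MAML2 was nearly silent, with 0.328, 0.713 and 0.00 CPM in MR49F, 1.32, 1.90 and 1.14 CPM in C4-2, and 0.534, 0.682 and 1.24 CPM in LNCaP. These are 3, 6 and 0 counts in MR49F, 55, 15 and 8 in C4-2, and 5, 6 and 9 in LNCaP. MAML2 was lower in MR49F than in C4-2 (-2.00, SE 0.527, adjusted p = 0.00262), with -2.98 without MR49F replicate 2 and -1.44 without MR49F replicate 3 (adjusted p = 0.00114 and 0.0185). Against LNCaP the MR49F value was -1.18 (adjusted p = 0.145), and it passed without MR49F replicate 2 (-2.16, adjusted p = 0.0408). In the fit of the 6 MR49F and C4-2 libraries alone MAML2 had too few counts to test.

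KAT2B and EP300 encode histone acetyltransferases that Mastermind complexes recruit. KAT2B had 42.0, 43.6 and 47.6 CPM in MR49F, 16.0, 25.4 and 21.2 CPM in C4-2, and 28.6, 28.7 and 27.7 CPM in LNCaP. The 3 lines did not overlap at any point, with MR49F at the top and C4-2 at the bottom. KAT2B rose in MR49F against LNCaP (log2 fold change 0.65, SE 0.128, edgeR adjusted p = 3.24e-04) and fell in C4-2 against LNCaP (-0.51, SE 0.135, adjusted p = 0.00384). Without C4-2 replicate 1 the second value was -0.28 (adjusted p = 0.041). MR49F exceeded C4-2 by 1.15 (SE 0.130, adjusted p = 1.81e-07).

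EP300, which encodes the acetyltransferase p300, a co-activator of many factors including the androgen receptor, had 106, 105 and 93.6 CPM in MR49F, 103, 152 and 125 CPM in C4-2, and 168, 170 and 162 CPM in LNCaP. LNCaP stood above both derived lines, which overlapped. EP300 fell in MR49F (log2 fold change -0.72, SE 0.107, edgeR adjusted p = 1.37e-05) and in C4-2 (-0.41, SE 0.106, adjusted p = 0.00298), both against LNCaP. The C4-2 value was -0.27 without C4-2 replicate 1 (adjusted p = 0.00475). The lower level in MR49F than in C4-2 (-0.30, adjusted p = 0.0188) was lost without C4-2 replicate 2 (-0.16, adjusted p = 0.128) and without MR49F replicate 3 (-0.25, adjusted p = 0.0889). SPEN, a large RNA-binding co-repressor that docks on RBPJ in the absence of signal, had 106, 103 and 91.5 CPM in MR49F, 73.6, 105 and 90.7 CPM in C4-2, and 132 CPM in each of the 3 LNCaP libraries. LNCaP was again above the others. SPEN fell in MR49F (-0.39, SE 0.103, adjusted p = 0.00359) and in C4-2 (-0.57, SE 0.103, adjusted p = 1.10e-04), both against LNCaP. The C4-2 value lay between -0.71 and -0.43 over the 14 alternatives and was called in each. MR49F against C4-2 gave 0.18 (adjusted p = 0.147) and was called only without C4-2 replicate 2. SNW1 averaged 110 ± 16.4 CPM in MR49F, 97.7 ± 6.12 CPM in C4-2 and 101 ± 4.93 CPM in LNCaP, with no call.

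Of the 29 genes, 6 have more than 10 kb of merged exons: ADAM10 (16.17 kb), SPEN (13.29 kb), EP300 (12.5 kb), FBXW7 (11.1 kb), ADAM17 (10.75 kb) and MIB1 (10.03 kb). As given above, EP300 and SPEN fell in both derived lines, ADAM17 rose in both, ADAM10 rose in C4-2, and FBXW7 and MIB1 were not called. Over the 1526 tested protein-coding genes with more than 10 kb, the median log2 fold change was -0.07 in MR49F and -0.08 in C4-2 against LNCaP. Over the 2422 genes of up to 3 kb it was 0.11 and 0.05. Among the long genes, 29.6% were lower in MR49F and 31.8% in C4-2, and among the short ones 18.2% and 17.5%. The part of transcript length in the values of these genes was not tested.

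**Figure D3:**
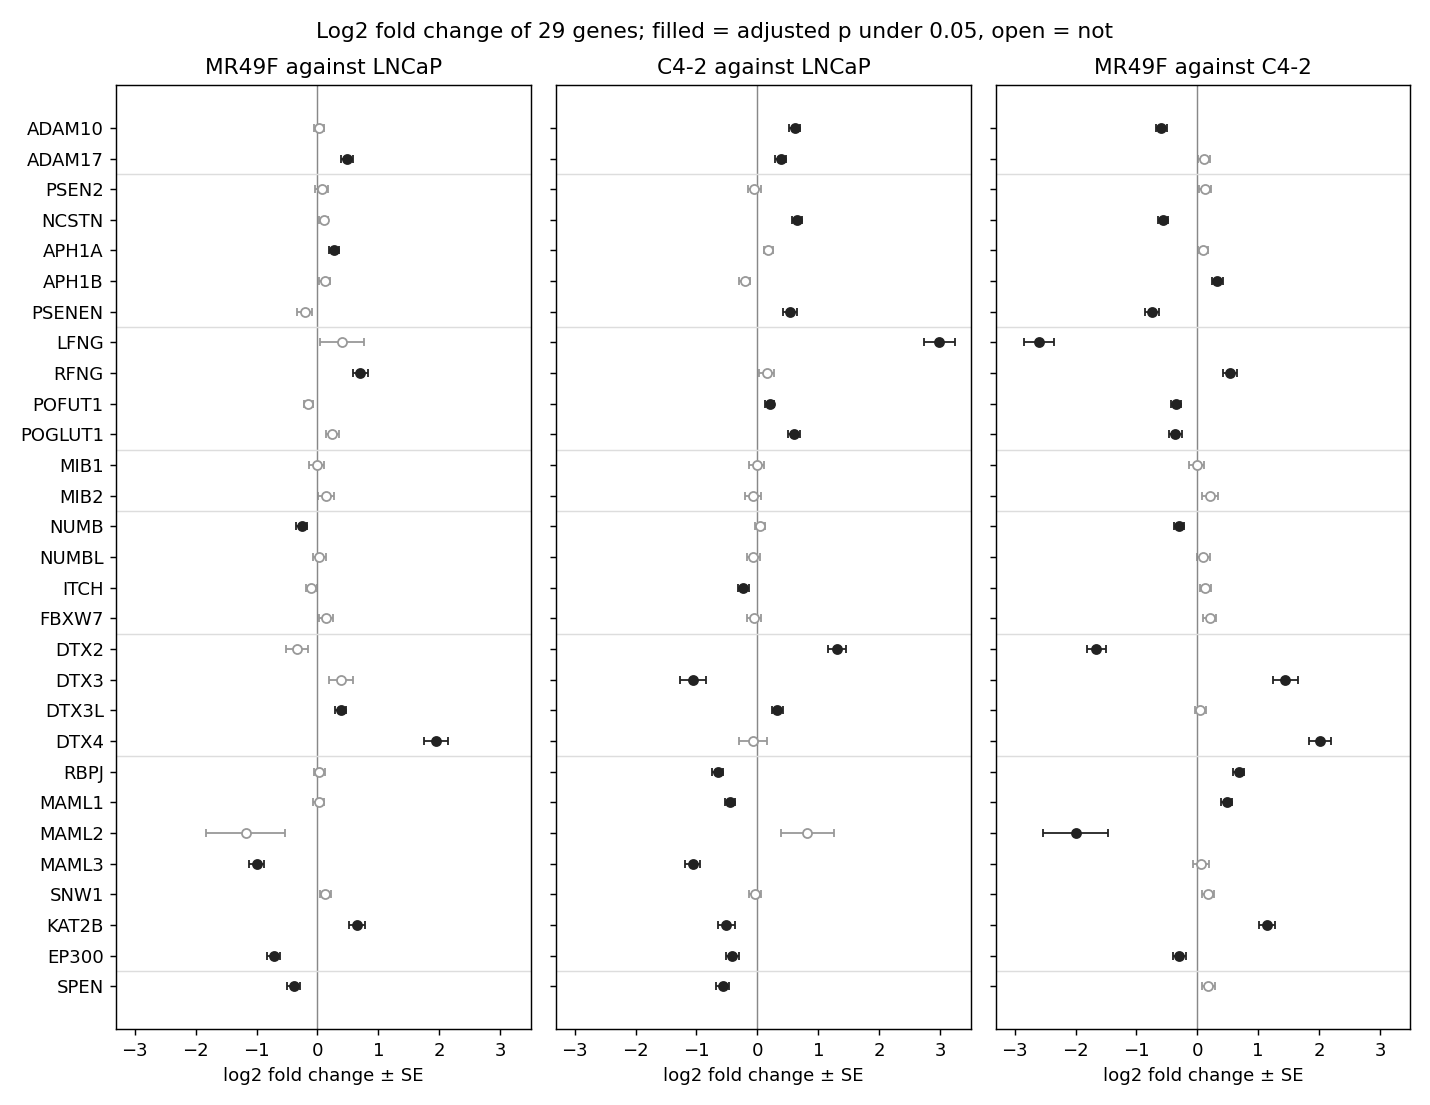
Log2 fold change (horizontal, error bars 1 SE) of the 29 genes (vertical, by role) in MR49F against LNCaP, C4-2 against LNCaP and MR49F against C4-2; filled points have an adjusted p under 0.05. LFNG at 2.99 in C4-2 and DTX4 at 1.95 in MR49F are the highest values against LNCaP, and in the RBPJ group the 5 called C4-2 points lie left of 0.

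Promoter windows from RefSeq (GRCh38.p14) were read for the letters TGGGAA, the core bound by RBPJ, and for the longer GTGGGAA that contains it, on both strands. A window ran from 250 bases before to 50 after an annotated start, and 38 windows covered 27 of the 29 genes; APH1B and DTX3 had none. TGGGAA was in 7 of the 38 windows, against 24.0% of all 35116 windows of the table, and GTGGGAA was in 2 of 38, against 6.25%. The shorter match occurred at PSENEN, LFNG, POGLUT1, DTX2, RBPJ and SPEN. Of these, PSENEN, LFNG, POGLUT1 and DTX2 were higher and RBPJ and SPEN lower in C4-2 than in LNCaP, so genes with the match moved in both directions. In that comparison 58.6% of the 29 genes and 49.7% of all tested genes were called. In MR49F against LNCaP, SPEN was lower and the others with the match were not called. LFNG has 2 windows, each with 1 match, and RBPJ has 5, of which 1 holds a match. Bases 250 to 51 before the start are shown for 3 genes that differed between C4-2 and LNCaP, all on the plus strand, with TGGGAA or its reverse complement TTCCCA in capitals; they are chr7:2517613-2517812 for LFNG, chr7:76461459-76461658 for DTX2 and chr4:26319496-26319695 for RBPJ.
LFNG: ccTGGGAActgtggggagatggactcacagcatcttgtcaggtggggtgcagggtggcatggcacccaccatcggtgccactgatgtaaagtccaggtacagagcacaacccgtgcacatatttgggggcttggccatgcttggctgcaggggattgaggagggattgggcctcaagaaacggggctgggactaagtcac
DTX2: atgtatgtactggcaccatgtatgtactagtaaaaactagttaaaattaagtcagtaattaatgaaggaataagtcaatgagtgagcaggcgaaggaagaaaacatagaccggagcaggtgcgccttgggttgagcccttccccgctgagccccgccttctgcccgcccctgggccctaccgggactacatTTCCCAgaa
RBPJ: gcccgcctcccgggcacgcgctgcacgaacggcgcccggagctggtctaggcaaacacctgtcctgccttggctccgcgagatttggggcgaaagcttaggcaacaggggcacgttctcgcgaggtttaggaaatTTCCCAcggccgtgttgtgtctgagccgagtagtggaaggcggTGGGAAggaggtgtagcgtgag
In the RBPJ window shown, chosen because it holds the match, the letters occur on both strands, beginning 115 and 72 bases before the start, and both are part of GTGGGAA. The match in the LFNG window shown begins 248 bases before the start and the DTX2 match 59 bases before it, and neither extends to GTGGGAA. A match is only a match of letters, and binding was not measured.

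Neighbouring genes on the chromosome were also read. For each gene, the 10 nearest tested genes on either side were read, which span 0.42 to 13.1 Mb. For scale, 24.1% of all tested genes were higher and 22.8% lower in MR49F against LNCaP. These shares were 26.2% and 23.5% in C4-2 against LNCaP, and 29.9% and 31.1% in MR49F against C4-2. The genes and comparisons given first were picked after the values were seen, because the neighbours moved the same way as the gene. DTX2 (ENSG00000091073, GRCh38 chromosome 7, 76461676 to 76505995) lay among genes that were also higher in C4-2 than in LNCaP, with 13 of 20 neighbours called higher, 2 lower and a median log2 fold change of 0.55. DTX3L (chromosome 3, 122564238 to 122575203) had 14 of 20 neighbours higher in C4-2 and a median of 0.61, above its own 0.33. RBPJ (ENSG00000168214, chromosome 4, 26163455 to 26435131) had 10 of 20 lower in C4-2 and a median of -0.30. In MR49F against LNCaP, EP300 (ENSG00000100393, chromosome 22, 41091786 to 41180079) had 11 of 20 neighbours lower, none higher and a median of -0.32. RFNG (chromosome 17, 82047902 to 82051831) had 10 of 20 higher and a median of 0.25, and ADAM17 (chromosome 2, 9488486 to 9556732) had 11 of 20 higher and a median of 0.34. PSENEN (chromosome 19, 35745114 to 35747519) lay in a run of genes lower in MR49F than in C4-2, 14 of 20, with a median of -0.42. Against LNCaP the median around PSENEN was -0.37 in MR49F and 0.04 in C4-2. For the other genes, the comparison with LNCaP not given above had these medians. In MR49F they were 0.12 around DTX2, 0.13 around DTX3L and -0.07 around RBPJ. In C4-2 they were -0.10 around EP300, 0.05 around RFNG and 0.10 around ADAM17. FBXW7 and NUMBL, also picked after the values were seen, did not move with their neighbours in MR49F against LNCaP. Around FBXW7, 9 of 20 neighbours were lower and 3 higher, with a median of -0.5, beside its own 0.14. Around NUMBL, 10 of 20 were lower and 1 higher, with a median of -0.39, beside its own 0.03. Neither gene was called.

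Around LFNG, DTX4, DTX3, KAT2B and MAML3, singled out after their values were seen, the neighbours are given for each comparison with LNCaP in which the gene was called. Around LFNG (ENSG00000106003, chromosome 7, 2512529 to 2529177), 4 of 20 neighbours were higher and 5 lower in C4-2 than in LNCaP, with a median of 0.02. Around DTX4 (ENSG00000110042, chromosome 11, 59171430 to 59208587), 5 were higher and 5 lower in MR49F than in LNCaP, with a median of -0.08. MAML3 (ENSG00000196782, chromosome 4, 139716753 to 140154184) fell where the neighbours' median was 0.20 in MR49F and -0.15 in C4-2 against LNCaP. DTX3 (chromosome 12, 57604622 to 57609804) fell in C4-2 among neighbours with a median of 0.22. KAT2B (ENSG00000114166, chromosome 3, 20040023 to 20154404) rose in MR49F among neighbours with a median of 0.04, and fell in C4-2 where 8 of 20 neighbours were lower, 4 higher and the median was -0.23. Neighbouring genes are not independent of each other, and no test was made of these medians.

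**Figure D4:**
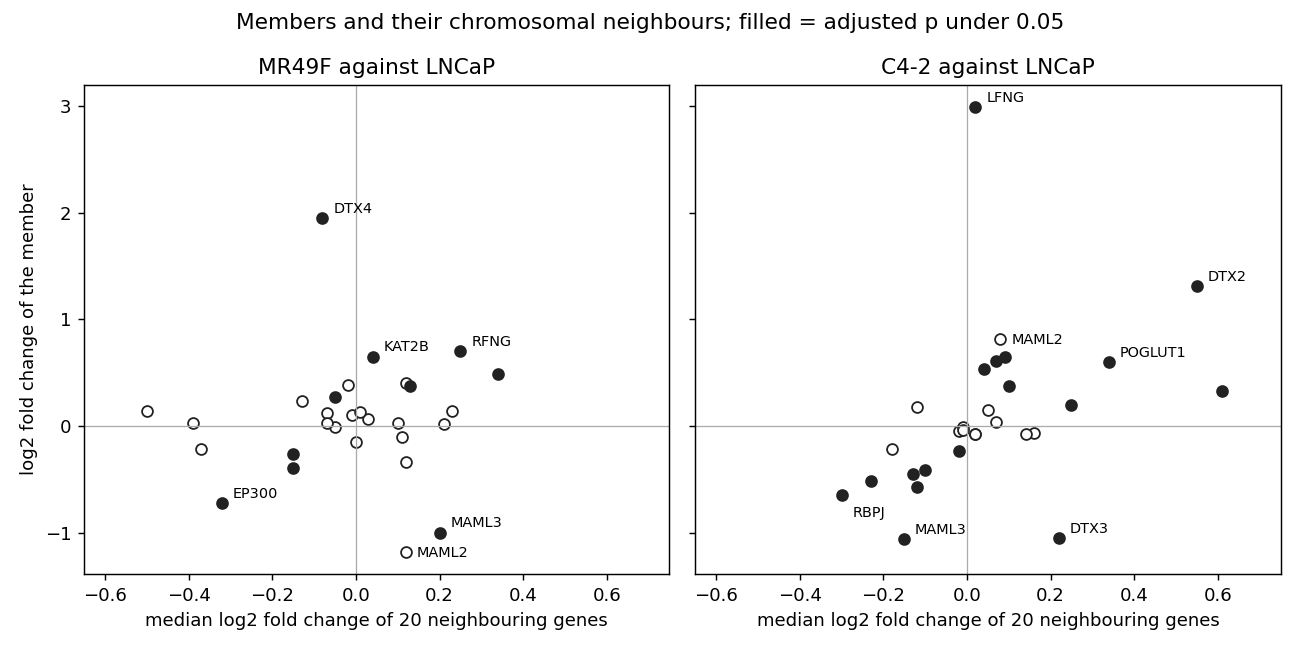
Log2 fold change of each of the 29 genes (vertical) against the median log2 fold change of its 20 nearest tested genes (horizontal), in MR49F and in C4-2 against LNCaP; filled points have an adjusted p under 0.05. LFNG in C4-2 and DTX4 in MR49F sit above neighbours near 0, while DTX2 in C4-2 lies at a neighbour median of 0.55.

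The other genes of the pathway, taken by list, give the setting. Of 7 tested receptors and ligands, 2 were higher and 3 lower in MR49F against LNCaP, and 3 were higher and 2 lower in C4-2. That is 71.4% called in each comparison, beside 47.0% of all tested genes in MR49F and 49.7% in C4-2. These lists are short, so a single call moves their shares widely. Among effector genes, which were HES and HEY genes and NRARP, 1 of 5 tested was higher and 3 lower in MR49F against LNCaP. In C4-2, 2 were higher and 1 lower. The shares called were 80.0% and 60.0%. NRARP, which is not of the HES or HEY type, was the gene lower in C4-2 (-0.35, edgeR adjusted p = 0.0464). It was also among those lower in MR49F (-0.97, adjusted p = 4.36e-05). NOTCH3, the receptor with the widest difference, averaged 3.80 CPM in MR49F, 56.9 CPM in C4-2 and 31.6 CPM in LNCaP.

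Of 13 tested co-repressors that RBPJ can recruit, 3 were higher and 3 lower in MR49F against LNCaP, and 2 were higher and 7 lower in C4-2, with median log2 fold changes of -0.02 and -0.29. The shares called were 46.2% and 69.2%, beside 47.0% and 49.7% of all tested genes. CTBP1, which bridges RBPJ-bound SPEN to repressive enzymes, averaged 200 ± 11.2 CPM in MR49F, 79.7 ± 8.86 CPM in C4-2 and 140 ± 7.91 CPM in LNCaP. It rose in MR49F (0.51, edgeR adjusted p = 5.64e-05) and fell in C4-2 (-0.81, adjusted p = 1.84e-07), as KAT2B did. TLE1, a Groucho-type co-repressor, rose by 1.64 in C4-2 (adjusted p = 2.09e-09). TLE3 fell in MR49F (-0.59, adjusted p = 1.88e-06) and in C4-2 (-0.36, adjusted p = 4.62e-04).

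Of 5 tested genes for further glycosylation and maturation, 2 were higher and none lower in MR49F against LNCaP, and 3 were higher and none lower in C4-2. The shares called were 40.0% and 60.0%, beside 47.0% and 49.7% of all tested genes. XXYLT1 and GXYLT1, which extend the O-glucose that POGLUT1 adds, rose in C4-2 by 0.54 and 0.42 (edgeR adjusted p = 1.63e-04 and 0.00283). GXYLT2 went another way, with -0.61 in C4-2 (adjusted p = 0.0538) and a rise of 0.91 in MR49F (adjusted p = 0.00327). FURIN, the protease that cleaves the Notch precursor, rose in MR49F by 0.42 (adjusted p = 8.63e-04). Of 9 tested genes for further endocytosis and ubiquitin ligation, 2 were higher and 2 lower in MR49F, and 4 were higher and 2 lower in C4-2. Their shares called were 44.4% and 66.7%. LNX2, which belongs to a family of ubiquitin ligases that act on NUMB, rose by 0.52 in MR49F and by 1.66 in C4-2 (adjusted p = 9.88e-05 and 4.21e-12). WWP2, a ligase related to ITCH, fell in MR49F (-0.98, adjusted p = 9.14e-09) and less in C4-2 (-0.23, adjusted p = 0.0261).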

How the data were processed

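The values are counts per Ensembl gene, deposited by the authors without normalization, 1 column per library. The submitters' processing notes name FastQC 0.11.3, HTSeq 0.6.1, TopHat2, edgeR 3.12.1 and GRCh38.p12, with no role given. Per the labels' protocols, libraries were made with a stranded TruSeq kit and sequenced on a HiSeq2500. The strand setting and annotation release behind the counting were not given in the sources used here. Of the table's columns, 9 matched samples by name; 3 others matched no title and were not used. Coordinates, exons and overlaps come from GENCODE 29 (GRCh38), which matched 57388 of 57992 entries.

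Tests used edgeR 4.0.16 (robust quasi-likelihood, TMM scaling, filterByExpr, 1 mean per line, 9 libraries, 6 residual degrees of freedom) in R 4.3.3, with Benjamini-Hochberg adjustment over 15407 genes. SE is the absolute log2 fold change over the square root of F. CPM uses TMM-scaled totals, with mean ± SD of 3. The fit was tested on simulated data, which recovered 65.6% to 73.4% of 1.5-fold changes over the 3 comparisons. It recovered 79.1% to 92.2% of 2-fold and 98.6% to 100% of 4-fold changes. Small differences can therefore go uncalled. The 29 genes and all lists were chosen with earlier results of these data known. Genes called with an absolute log2 fold change of at least 0.5 in any comparison, 15 of the 29, are given in every library and the others by means. Of other pathway genes, up to 3 per list and comparison are named, not always those with the lowest adjusted p. In C4-2 against LNCaP, JAG1 (-2.55), NEDD4L (0.85) and LNX1 (4.17) had a lower adjusted p than a gene named from their list. Alternatives were RLE scaling, DESeq2 1.42.0, no count filter, only the 6 libraries compared, a replicate block and each library left out. Length classes, neighbours and the TGGGAA letters were added after seeing the data, as descriptions without tests. Replicates are called biological in the design text, without saying whether cultures were separate, so p-values measure only the spread between these samples, which may be technical.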

Additional observations from a re-analysis of the deposited data

How the results depend on the processing

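The counts of called genes in MR49F against LNCaP, 6 higher and 4 lower, kept the same 10 genes with RLE scaling, DESeq2, no count filter and the replicate block. With only the 6 libraries compared, 7 were lower: DTX2, POFUT1 and PSENEN were called in addition, and POGLUT1 as higher. In C4-2 against LNCaP, the 17 called genes were kept with RLE scaling and the block, ITCH was lost with DESeq2 and with only the 6 libraries, and ITCH and POFUT1 without a count filter. In MR49F against C4-2, the 17 called genes were kept under these settings except MAML2 in the fit of 6 libraries, where it could not be tested. With each library left out in turn, genes called higher and lower numbered 5 to 7 and 3 to 5 in MR49F against LNCaP, 8 to 10 and 7 to 9 in C4-2 against LNCaP, and 7 to 9 and 9 to 11 in MR49F against C4-2. The cause of these changes was not tested.

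Same-numbered libraries of different lines had deviations from their line means that correlated between -0.083 and 0.056 over genes, which are not independent replicates. Libraries with different numbers correlated between -0.115 and 0.127. No shared effect of the numbers was thus seen, but such correlations cannot show whether samples were paired. With the replicate block the called counts were 6 and 4, 9 and 8, and 7 and 10 in these comparisons, equal to those without it. Log2 fold changes that were not called in the reported fit changed sign as follows when a library was left out (lowest to highest value over the 9 fits). In MR49F against LNCaP these were ADAM10 (-0.03 to 0.06), LFNG (-0.07 to 0.68), MIB1 (-0.07 to 0.02), NUMBL (-0.05 to 0.1), RBPJ (-0.02 to 0.07), MAML1 (-0.04 to 0.09) and SNW1 (-0.01 to 0.21). In C4-2 against LNCaP these were PSEN2 (-0.16 to 0.01), MIB1 (-0.15 to 0.19), MIB2 (-0.14 to 0.03), NUMB (-0.04 to 0.1), NUMBL (-0.15 to 0.0038), FBXW7 (-0.16 to 0.05), DTX4 (-0.16 to 0.02) and SNW1 (-0.08 to 0.01). In MR49F against C4-2 these were MIB1 (-0.2 to 0.12), DTX3L (-0.03 to 0.12) and MAML3 (-0.05 to 0.12). Of these, MIB1 in C4-2 against LNCaP passed the threshold with the changed sign, without C4-2 replicate 1. MAML1 in MR49F against LNCaP gave -0.00013 without a count filter, and MIB1 gave 0.0013 in C4-2 against LNCaP with DESeq2 and 0.0024 in MR49F against C4-2 with the block. Calls on genes of few counts (LFNG, DTX3, DTX4 and MAML2) are limited by depth outside C4-2 replicate 1.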
